A study of Mus musculus with 5 samples.

Results

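The genes described here are Evx2 and the 9 genes of the Hoxd cluster, Hoxd13, Hoxd12, Hoxd11, Hoxd10, Hoxd9, Hoxd8, Hoxd4, Hoxd3 and Hoxd1. They are 10 of the 21938 protein-coding genes of the GENCODE M21 annotation and were chosen by name. They lie side by side on mouse chromosome 2 (GRCm38). Around them, every deposited H3K27me3 peak was taken that touched a window of 147 kb, which began 9.68 kb beyond the Evx2 3′ end and ended 25 kb beyond the Hoxd1 3′ end. The window held 73 of the 22757 peaks of H3K27me3 replicate 1 called against input, 39 of the 33379 peaks of replicate 2 called against input, and 81 of the 24881 peaks of replicate 1 called against IgG.

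The mesenchyme of molars from C57BL/6 wildtype mice 3 days after birth, freed of its epithelium, was profiled by ChIP-seq, the sequencing of DNA recovered with antibody-bound chromatin. It was used to ask which genes carry H3K27me3, histone H3 trimethylated at lysine 27, in this tissue. There were 2 H3K27me3 libraries, 2 libraries of input chromatin and 1 library made with nonspecific IgG, all from mice of this genotype and age, with no mutant and no treatment among them. The labels do not give the animals behind either H3K27me3 library or any pooling of molars, so each SD below is the spread between 2 libraries.

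Hox genes encode homeodomain transcription factors that give cells along the head to tail axis and along the limb their positional identity. Their order on the chromosome follows the order in which they are used along the body, with the genes next to Evx2 used most posteriorly. H3K27me3 is placed by Polycomb repressive complex 2, whose catalytic subunit is Ezh2 or Ezh1, and it marks genes that are kept silent in a given cell. The jaw mesenchyme in which molars form comes largely from cranial neural crest that migrates into the first pharyngeal arch, a population known for lacking Hox expression.

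Replicate 1 had 30369351 H3K27me3 tags and 23688420 input tags after duplicate removal, and its IgG control had 24440452. Replicate 2 had 49947919 H3K27me3 tags and 51681224 input tags. Tags were 49 bp long in replicate 1 and 74 bp in replicate 2, so depth, tag length and replicate cannot be told apart. Peaks were short in all lists, with a median of 119 bp in replicate 1 and 181 bp in replicate 2. The lists hold positions of chromatin marks and no expression, so the labelled tissue was not checked against marker genes. Among 83 ribosomal protein genes, a list of broadly expressed genes, replicate 1 marked 1 promoter, replicate 2 marked 1, and 0 promoters were marked in both.

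The deposited peaks were spread over the whole cluster, many and short rather than few and long. The peak caller extended tags to only 46 bp in replicate 1 and 71 bp in replicate 2, so peak length need not be the length of the mark. In replicate 1 the 73 peaks covered 13.0 kb, or 8.87% of the window. In replicate 2 the 39 peaks covered 12.8 kb, or 8.71%, and in the IgG-called list the 81 peaks covered 15.2 kb, or 10.4%. Both replicates thus covered close to the same share of the window, 8.79% ± 0.107 (SD, n = 2), with fewer and longer peaks in replicate 2. The median window peak was 125 bp long in replicate 1, 161 bp in the IgG-called list and 272 bp in replicate 2. In number the replicates differed, with 56.0 ± 24.0 peaks (SD, n = 2), and the window took 0.321% of all replicate 1 peaks and 0.117% of all replicate 2 peaks. A peak in both replicates was found in 44.9% of the 17882 windows of the same length laid end to end over the genome, so its presence alone says little. The genome-wide mean was 1.27 peaks a window in replicate 1 and 1.86 in replicate 2, and 3 and 4 of those windows held at least as many peaks as the Hoxd window. All of them lay over the Hoxa, Hoxb or Hoxc cluster. The Hoxd window was placed around its genes and the others on a fixed grid. The grid window over part of the Hoxd cluster held 50 peaks in replicate 1 and 32 in replicate 2.

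**Figure D1:**
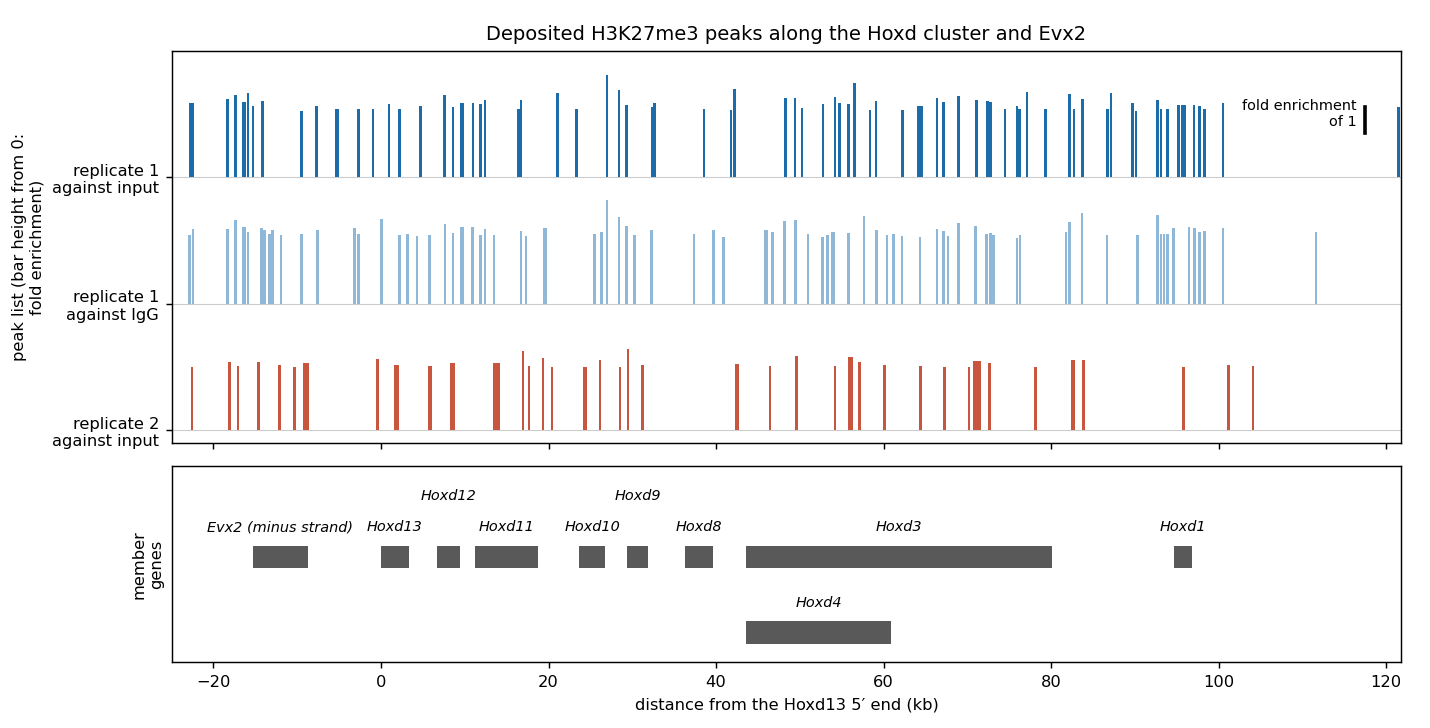
Each bar is 1 deposited peak, placed by its distance from the Hoxd13 5′ end in kb, with its height showing fold enrichment from 0 and narrow peaks widened so that they can be seen. The lower panel shows the 10 member genes. Peaks of all 3 lists run from below Evx2 to Hoxd1, are sparse around Hoxd8 and nearly end after Hoxd1.

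Single peaks were weak. Fold enrichment, the ratio of the tag pileup in a peak to the control's background as the peak caller gave it, ran from 2.51 to 3.88 in replicate 1, from 2.51 to 3.96 in the IgG-called list and from 2.39 to 3.07 in replicate 2. The window medians were 2.79, 2.74 and 2.48, compared with 2.63, 2.66 and 2.45 over the whole lists. Per peak the mean pileup stood for 4 to 6.73 tags in replicate 1 and 6 to 7.92 tags in replicate 2. At the lowest pileup of its list lay 27.4% of the window peaks in replicate 1 and 20.5% in replicate 2, below the 44.5% and 37.9% of all peaks. A fold enrichment of 3 or more was reached by 16 window peaks in replicate 1, 12 in the IgG-called list and 2 in replicate 2. These were 21.9%, 14.8% and 5.13% of the window peaks, against 8.96%, 10.7% and 1.56% of all peaks. At a q-value of 0.05 or lower, 0 window peaks were left in both replicates, and over the whole lists 0 were left in replicate 1 and 4 in replicate 2.

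The strongest window peak of replicate 1 (fold 3.88, 57 bp) lay between Hoxd10 and Hoxd9 at chr2:74695289-74695345. The same place held the strongest peak called against IgG, at fold 3.96. Replicate 2 had no peak overlapping it. Its own strongest peak (fold 3.07, 73 bp) lay inside Hoxd9 at chr2:74697760-74697832, and its next (fold 3.03, 115 bp) lay inside Hoxd11 at chr2:74685231-74685345. In all lists the highest fold enrichment of the window thus lay at Hoxd9 or between it and Hoxd10.

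To see whether both libraries marked the same places, the window peaks of the lists were overlapped, with 1 shared base counting as an overlap. In replicate 1, 15 of 73 window peaks met a replicate 2 peak (20.5%, 95% Wilson interval 12.9% to 31.2%), where 2.85% of all replicate 1 peaks did. Of the 39 replicate 2 window peaks, 15 met a replicate 1 peak (38.5%, interval 24.9% to 54.1%), where 1.90% of all replicate 2 peaks did. Most window peaks of either replicate therefore had no partner in the other at the base level. Nearness was more common, since 47 of 73 replicate 1 window peaks (64.4%, interval 52.9% to 74.4%) had a replicate 2 peak within 1 kb, compared with 12.7% of all replicate 1 peaks. These intervals cover counting error only, and peaks of 1 window are not independent. Replicate 2 peaks were dense in the window, with a median gap of 2.42 kb, so many of its bases lie within 1 kb of one. How much of the overlap and nearness shares comes from that density was not tested.

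The control also moved single peaks. The lists of replicate 1 against input and against IgG came from the same H3K27me3 library, and 47 of its 73 window peaks met an IgG-called peak (64.4%, interval 52.9% to 74.4%), while the share over all replicate 1 peaks was 51.0%. In the other direction it was 49 of 81 (60.5%, interval 49.6% to 70.4%). So 26 of the 73 peaks had no counterpart when only the control was changed.

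Next, the Hoxd genes were set beside the other Hox clusters. Over the span from the outermost bases of its genes, the Hoxd cluster was covered to 9.06% in replicate 1, 12.3% in the IgG-called list and 10.2% in replicate 2. Hoxa reached 14.3%, 16.3% and 11.5%, Hoxb 13.0%, 14.5% and 9.15%, and Hoxc 11.5%, 14.5% and 6.39%. In replicate 1 and in the IgG-called list the Hoxd span was thus the lowest of the 4 clusters, and in replicate 2 Hoxa alone was higher. As means the values were 9.66% ± 0.839 for Hoxd, 12.9% ± 1.93 for Hoxa, 11.1% ± 2.72 for Hoxb and 8.95% ± 3.62 for Hoxc (SD, n = 2). Hoxa exceeded Hoxd by more than the larger SD of the pair, and the other differences from Hoxd were smaller than it. Within a library, Hoxa minus Hoxd was 5.21 percentage points in replicate 1 and 1.29 in replicate 2, above Hoxd in both. For Hoxb it was 3.93 and −1.10 and for Hoxc 2.44 and −3.86, so the order of these spans relative to Hoxd turned between the replicates. The Hoxb span was the longest, at 174 kb against 96.8 kb for Hoxd. Taken by gene with 5 kb on each side, the median share was 17.3% in Hoxb and 9.10% in Hoxd in replicate 1. It was 18.7% and 12.1% in the IgG-called list and 13.4% and 11.3% in replicate 2, so Hoxb was higher in every list. The Hoxa median was also higher in each, and that of Hoxc was 8.68%, 14.0% and 6.32%. With 2 libraries an exact permutation test of the within-library differences cannot go below a two-sided p of 0.5, and none was run.

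**Figure D2:**
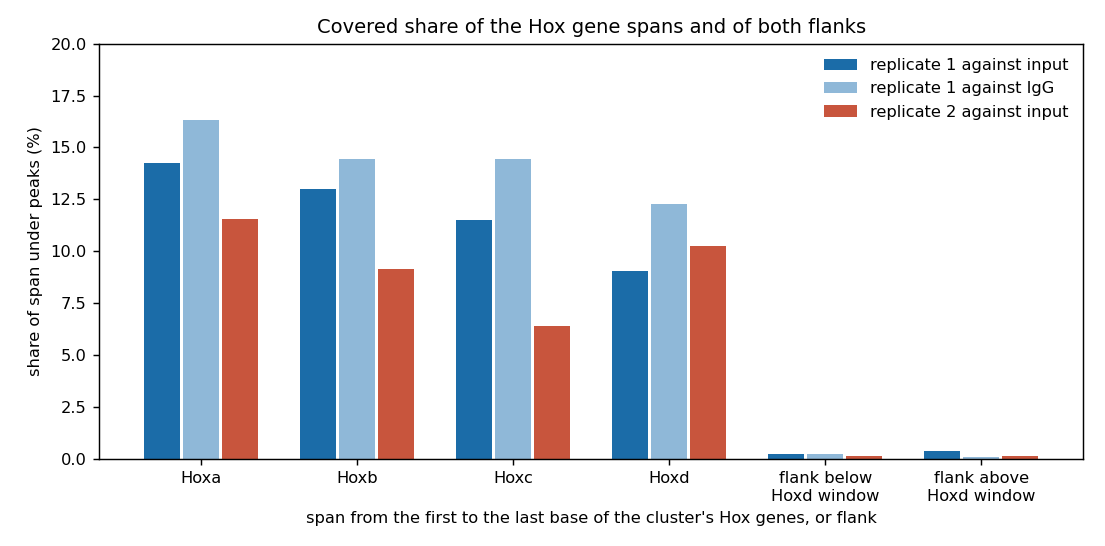
Bars give the percentage of bases under peaks in each list, from 0, for the gene spans of the 4 Hox clusters and for the flanks on both sides of the Hoxd window. Each flank has the length of the window, 147 kb. Hoxd lies between 9.06% and 12.3%, and no flank exceeds 0.347%.

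Few peaks lay in the flanks of the window. The flank below the window, on the Evx2 side, held 2 peaks in replicate 1 and 2 in replicate 2, and the flank above it held 3 and 1. The genome-wide means were 1.27 and 1.86 peaks a window. Below the window the nearest peak ended 4.02 kb away in replicate 1 and 4.34 kb away in replicate 2. In this flank 0 replicate 1 peaks were overlapped by a replicate 2 peak. With so few peaks, it cannot be told whether the mark goes on past the window edge. Above the window the next peak began 123 kb and 6.42 kb away. The flanks were covered to 0.161% ± 0.0559 and 0.228% ± 0.168 (SD, n = 2), compared with 8.79% ± 0.107 in the window. Of 7 protein-coding genes outside the window with a 5′ end within 1 Mb of it, 0 had a peak in both replicates in the gene or within 5 kb of it, the measure that 15.7% of all protein-coding genes met. The nearest of them were Lnpk, 63.9 kb below the window, and Mtx2, a mitochondrial outer membrane gene 35.7 kb above it. Both were at 0% in replicate 1 and in replicate 2. Chn1 had the highest mean covered share of the 7, at 0.152%.

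At gene starts, a peak within 1 kb of the 5′ end was present at 7 of 10 members in replicate 1, at 8 of 10 in replicate 2 and at 7 of 10 in the IgG-called list, while the shares over all protein-coding genes were 3.87%, 4.16% and 4.52%. In both replicates it was present at 6 of 10, Evx2, Hoxd13, Hoxd12, Hoxd10, Hoxd9 and Hoxd1, against 1.04% of all protein-coding genes. Among the 31 other genes of the kind, namely the Hoxa, Hoxb and Hoxc genes with Evx1, it was 20. By cluster this was 5 of 12 for Hoxa with Evx1, 9 of 10 for Hoxb and 6 of 9 for Hoxc, against 5 of 9 for Hoxd without Evx2. By position, it was 5 of 6 posterior members (Evx2 and Hoxd13 to Hoxd9) and 1 of 4 central and anterior ones (Hoxd8 to Hoxd1). Hoxd11, Hoxd8, Hoxd4 and Hoxd3 did not meet it. The count was 5 with replicate 1 called against IgG, 5 without peaks at the lowest pileup and 4 with replicate 2 reduced to the size of the replicate 1 list. With any transcript start that GENCODE gives to the gene, 8 of 10 members, all but Hoxd11 and Hoxd8, had 1 start that peaks of replicates 1 and 2 both approached to 1 kb or less, against 1.52% of all protein-coding genes. Hoxd4 and Hoxd3, whose 5′ ends nearly coincide, thus met the rule there, and with RefSeq starts Hoxd4 met it and Hoxd3 did not. The split by position therefore depends on the start used. Within 5 kb of the 5′ end, 10 of 10 members had a peak in both replicates, against 4.31%. Of 29 stretches of 5 kb laid along the window, 23 held peaks of both replicates, so this count says little about gene starts in particular. How far the 1 kb counts follow from the peak density of the window was not tested. With peaks of a −log10 p of 3 or higher, 1 member met the 1 kb rule in both replicates, where 6 of all protein-coding genes did (0.0273%), and with those of a fold enrichment of 3 or higher it was 1, where 2 did (0.00912%).

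**Figure D3:**
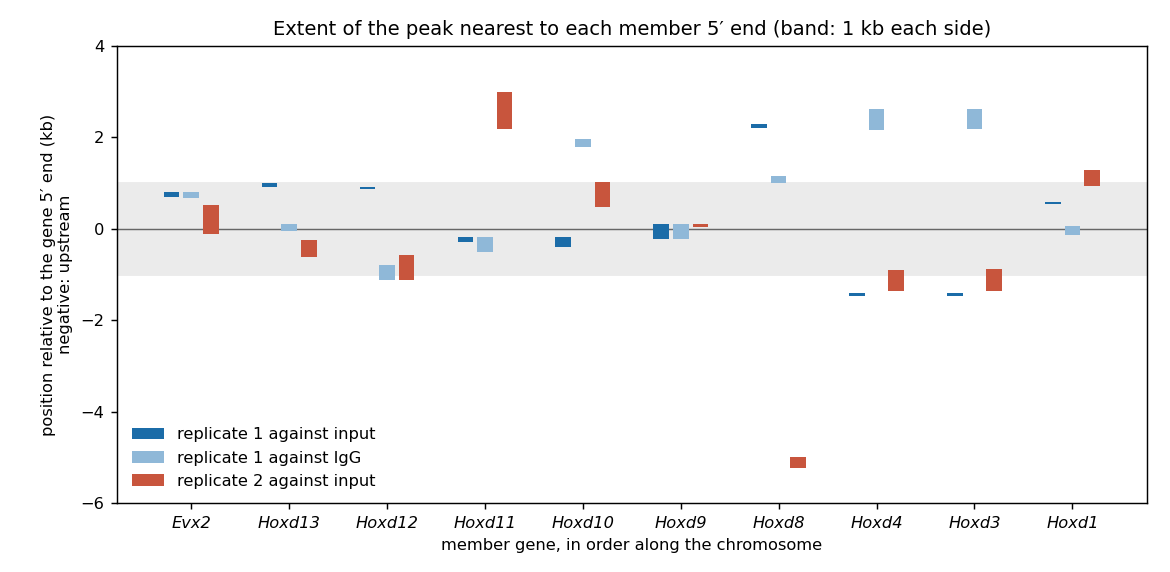
Bars span the peak nearest to each member's 5′ end in each list, in kb, with negative values upstream and the grey band marking 1 kb on each side. At Hoxd9 the replicate 1 and IgG-called bars cover the 5′ end and the replicate 2 bar begins 33 bp downstream, and at Hoxd8 the replicate 2 bar is 4990 bp away.

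The 6 posterior members are taken from the outer end of the cluster inward. Evx2 encodes an even-skipped homeodomain protein expressed in the developing limb, genital bud and nervous system, and it is the only member on the minus strand (chr2:74652991-74659557). Its body held 3 peaks in replicate 1, 6 in the IgG-called list and 4 in replicate 2. A replicate 2 peak of 646 bp, fold 2.54, lay over its 5′ end. In replicate 1 the nearest peak was 695 bp inside the gene, and in the IgG-called list 683 bp. With 5 kb on each side, the locus was covered to 15.0% in replicate 1, 11.1% in the IgG-called list and 10.4% in replicate 2. The bases before the start of Evx2 are shown because replicate 2 marked 120 of them and replicate 1 none, with capitals marking CpG dinucleotides, the sites of DNA methylation and the letters that define CpG islands (RefSeq promoter sequence, GRCm38.p6).
Evx2 before the start, chr2:74659558-74659807, minus strand: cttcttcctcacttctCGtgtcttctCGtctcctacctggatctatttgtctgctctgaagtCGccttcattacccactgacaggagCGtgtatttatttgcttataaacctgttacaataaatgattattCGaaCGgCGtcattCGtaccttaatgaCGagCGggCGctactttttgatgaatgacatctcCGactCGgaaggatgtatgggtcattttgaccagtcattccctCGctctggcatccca

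Hoxd13, required for digits and for the genital tubercle, lies at chr2:74668310-74671599. Each list placed its nearest peak differently, 909 bp downstream of the 5′ end in replicate 1, over the 5′ end in the IgG-called list, and 240 bp upstream in replicate 2. The IgG-called peak was among the clearer ones of the window, at fold 3.24. The body held 2, 3 and 1 peaks in replicate 1, the IgG-called list and replicate 2, which covered 7.23%, 18.1% and 17.9% of it. Its RefSeq promoter had the highest CpG count of the members, 37 in 300 bp, where the median over 32851 promoters was 7. The 250 bases before the RefSeq start hold 31 of them, and 96 of these bases lay under the replicate 2 peak.
Hoxd13 before the start, chr2:74667975-74668224, plus strand: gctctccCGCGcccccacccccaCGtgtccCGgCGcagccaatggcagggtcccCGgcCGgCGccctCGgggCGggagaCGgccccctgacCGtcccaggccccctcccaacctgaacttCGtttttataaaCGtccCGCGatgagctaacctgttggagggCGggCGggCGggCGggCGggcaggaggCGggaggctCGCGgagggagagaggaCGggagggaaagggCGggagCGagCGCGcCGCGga

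Hoxd12, another gene of limb patterning, lies at chr2:74675013-74677705. Of all members its locus had the highest mean covered share, 16.2% ± 3.82 (SD, n = 2), with 13.5% in replicate 1, 23.7% in the IgG-called list and 18.9% in replicate 2. In its gene body a replicate 1 peak (chr2:74676797-74677029, fold 2.68) lay wholly within a replicate 2 peak of fold 2.54, and the IgG-called list covered the place too. The shared 233 bp touch the annotated UTR of Hoxd12. At the 5′ end the nearest peaks were 861 bp downstream in replicate 1 and 783 and 570 bp upstream in the IgG-called list and in replicate 2.

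Hoxd11, which patterns the forearm and the caudal skeleton, lies at chr2:74679557-74687016. It showed the effect of the choice of start. At its GENCODE 5′ end replicate 1 had a peak 187 bp upstream, the IgG-called list one at 182 bp, and replicate 2 had its nearest peak 2184 bp downstream. RefSeq gives a further start at position 74682323, and there a replicate 2 peak of 814 bp, fold 2.57, covered all 300 bases of the promoter, while replicate 1 had its nearest peak at 1441 bp. Over the locus both replicates were close, at 10.3% and 11.7% (mean 11% ± 1.05, SD, n = 2).

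Hoxd10, a gene of the lumbar spinal cord and the hindlimb, lies at chr2:74691924-74695105. The lists disagreed on its body, which held 0 peaks in replicate 1, 2 in the IgG-called list and 2 in replicate 2, covering 0%, 12.6% and 18.9% of it. A replicate 1 peak of 207 bp lay 185 bp upstream of the 5′ end, and a replicate 2 peak of 529 bp lay 485 bp downstream. So the 1 kb rule was met in both replicates by peaks on opposite sides of the start.

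Hoxd9, which acts in the limb and the lower spine, lies at chr2:74697727-74700208, and all 3 lists had a peak at its start. A replicate 1 peak (chr2:74697497-74697821, fold 2.75) and an IgG-called peak (fold 2.94) covered the 5′ end, and the replicate 2 peak of fold 3.07 began 33 bp inside the gene. The peaks of both replicates shared 62 bp with 7 CpG, a density of 11.3 per 100 bp, the highest of the 15 shared stretches. These bases are in the annotated UTR and are not shown. The 214 bases upstream of them were all under the replicate 1 and the IgG-called peak and none under the replicate 2 peak. They are shown as the only member start that a peak of replicate 1 called against input spanned. IgG-called peaks of the same library also lay over the 5′ ends of Hoxd13 and Hoxd1.
Hoxd9 before the start, chr2:74697513-74697726, plus strand: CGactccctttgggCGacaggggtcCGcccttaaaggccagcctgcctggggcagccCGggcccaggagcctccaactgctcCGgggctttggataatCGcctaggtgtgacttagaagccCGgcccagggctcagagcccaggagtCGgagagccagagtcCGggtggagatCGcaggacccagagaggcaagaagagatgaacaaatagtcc
Both replicates also overlapped 878 bp upstream of this 5′ end, at fold 3.30 in replicate 1 and 2.40 in replicate 2, in a stretch of 97 bp within the non-coding genes Gm14396 and Gm28793. All of it was covered in the IgG-called list.
Shared stretch upstream of Hoxd9, chr2:74696753-74696849, plus strand: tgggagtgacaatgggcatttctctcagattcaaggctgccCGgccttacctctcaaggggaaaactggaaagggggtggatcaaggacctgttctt

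The central gene Hoxd8, expressed along the trunk, had the lowest covered locus share of the members in every list. It lies at chr2:74704615-74707933. Its locus was covered to 3.33% in replicate 1, 5.41% in the IgG-called list and 3.69% in replicate 2. The gene body held 1, 1 and 0 peaks, covering 2.23%, 4.64% and 0% of it. In replicate 1 the Hoxd10 body was lower, at 0%. With 10 kb on each side of the gene, the mean share of both replicates was 6.25% at Hoxd8 and lower, 5.70%, at Hoxd9. The nearest peak lay 2208 bp from the 5′ end in replicate 1, 992 bp in the IgG-called list and 4990 bp in replicate 2, and all 3 of these peaks had a fold of 2.63 or less. In replicate 2 the gap between peaks in which Hoxd8 lies was 10.9 kb, where the median gap of the window was 2.42 kb. The longest gap of replicate 2, 11.7 kb, lay elsewhere, from between Hoxd3 and Hoxd1 into Hoxd1. Replicate 1 had a gap of 5.79 kb that ended inside Hoxd8, against a median of 1.21 kb. It had longer gaps of 20.9 kb beyond Hoxd1 and of 6.02 kb over the Hoxd3 and Hoxd4 5′ ends. The gene body had 6.87 CpG per 100 bp and the locus 3.45, and their part in the coverage was not tested. This locus ranked above 98.7% of all protein-coding loci in replicate 1 and above 98.8% in replicate 2. The bases before its start, which no list covered, hold 6 CpG.
Hoxd8 before the start, chr2:74704365-74704614, plus strand: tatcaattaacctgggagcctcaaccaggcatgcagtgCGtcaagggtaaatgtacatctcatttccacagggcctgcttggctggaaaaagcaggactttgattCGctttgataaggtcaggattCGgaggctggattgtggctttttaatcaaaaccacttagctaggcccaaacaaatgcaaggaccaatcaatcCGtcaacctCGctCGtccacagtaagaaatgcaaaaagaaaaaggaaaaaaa

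Hoxd4 and Hoxd3, genes of the hindbrain and the cervical vertebrae, overlap in the annotation. Hoxd4 lies at chr2:74711929-74729160 and Hoxd3 at chr2:74711927-74748442, so their GENCODE 5′ ends are 2 bp apart and every Hoxd4 peak is also a Hoxd3 peak. At that shared end replicate 1 had a peak 1411 bp from the Hoxd3 end, and replicate 2 one at 888 bp, both upstream. Their loci were covered to 9.10% and 11.3% for Hoxd3 and 9.15% and 10.9% for Hoxd4 in replicates 1 and 2. The Hoxd3 body held 23 peaks in replicate 1, 25 in the IgG-called list and 12 in replicate 2, of which 19, 23 and 10 lay in introns. No other member body held more. RefSeq places the Hoxd4 start at 74721978, inside the gene, and around it replicate 1 had 3 peaks within 1 kb (nearest 473 bp), the IgG-called list 3 (92 bp) and replicate 2 1 (374 bp). With RefSeq starts, 7 of 10 members had peaks of both replicates within 1 kb of the same start, Hoxd4 in addition to the 6 above, against 1.14% of 16539 protein-coding genes with such a start. At Hoxd11 replicate 1 met one RefSeq start and replicate 2 the other.

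Within Hoxd3, 7 stretches were shared by peaks of both replicates, 3 of them also within Hoxd4, and they were all intronic. They made up 7 of the 15 stretches shared in the window, and 5 of them are shown with CpG in capitals, all read on the plus strand from the GRCm38.p6 genome. The stretch at 74717766 had fold 3.03 and 2.81, the one at 74722451, next to the RefSeq Hoxd4 start, 3.07 and 2.46, and the one at 74724110 2.79 and 2.78 in replicates 1 and 2. The one at 74732568, of 338 bp, of which the middle 300 are shown, had 6.21 CpG per 100 bp and fold 2.71 and 2.45. The one at 74740990 had fold 2.85 and 2.56.
Hoxd4 and Hoxd3 intron, chr2:74717766-74717862, plus strand: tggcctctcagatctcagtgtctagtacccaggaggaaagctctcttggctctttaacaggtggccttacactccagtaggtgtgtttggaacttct
Hoxd4 and Hoxd3 intron by the RefSeq Hoxd4 start, chr2:74722451-74722529, plus strand: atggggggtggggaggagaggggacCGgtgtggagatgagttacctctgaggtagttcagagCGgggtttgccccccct
Hoxd4 and Hoxd3 intron, chr2:74724110-74724162, plus strand: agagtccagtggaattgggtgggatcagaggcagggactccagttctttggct
Hoxd3 intron, chr2:74732587-74732886, plus strand: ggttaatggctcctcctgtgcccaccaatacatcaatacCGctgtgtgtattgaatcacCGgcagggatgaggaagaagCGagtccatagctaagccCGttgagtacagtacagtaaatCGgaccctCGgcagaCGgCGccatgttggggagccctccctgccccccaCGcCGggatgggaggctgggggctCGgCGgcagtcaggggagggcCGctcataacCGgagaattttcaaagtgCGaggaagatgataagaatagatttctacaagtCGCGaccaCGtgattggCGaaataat
Hoxd3 intron, chr2:74740990-74741067, plus strand: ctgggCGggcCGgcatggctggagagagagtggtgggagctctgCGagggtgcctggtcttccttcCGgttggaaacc
CpG content differed widely among them, from 0 in the stretches at 74717766 and 74724110 to 21 in the one at 74732568.

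Hoxd1, the gene at the anterior end, is known from nociceptive sensory neurons and lies at chr2:74762980-74765142. It had the largest disagreement between replicates, with a locus covered to 15.8% in replicate 1 by 11 peaks and to 4.98% in replicate 2 by 2 peaks (mean 10.4% ± 7.66, SD, n = 2). Against IgG it was 11.4%. Its body was covered to 24.8% and 16.6% in replicates 1 and 2 and to 5.09% in the IgG-called list. The bases before the Hoxd1 start are shown, of which the IgG-called list covered 144 and both input-called lists 0.
Hoxd1 before the start, chr2:74762730-74762979, plus strand: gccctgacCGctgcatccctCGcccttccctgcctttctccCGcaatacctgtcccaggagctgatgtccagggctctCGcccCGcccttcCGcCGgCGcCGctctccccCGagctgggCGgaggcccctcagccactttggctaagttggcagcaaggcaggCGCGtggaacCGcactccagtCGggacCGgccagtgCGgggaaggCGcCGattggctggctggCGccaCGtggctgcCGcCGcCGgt

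Across members the covered share of the locus, gene with 5 kb on each side, had a median of 9.13% in replicate 1, 12% in the IgG-called list and 11.1% in replicate 2. Over all protein-coding genes the median was 0% in each list, and the 99th percentile was 4.24%, 5.41% and 4.24%. All 10 members had locus peaks in all lists, and the lowest member stood at the 98.7 percentile or above. The mean shares ran from 16.2% at Hoxd12 through 12.7% at Evx2, 11% at Hoxd11, 10.4% at Hoxd1, 10.19% at Hoxd3, 10.05% at Hoxd4, 8.97% at Hoxd10, 8.82% at Hoxd13 and 6.59% at Hoxd9 to 3.51% at Hoxd8. Of the 9 steps between neighbours in this order, the step from Hoxd9 (6.59% ± 0.278) to Hoxd8 (3.51% ± 0.260) exceeded the larger SD of the pair, and the other 8 did not. It was also the 1 step with the same direction in both replicates. Replicate 2 was the higher one at 7 of 10 loci. Loci of neighbouring members overlap and share peaks.

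**Figure D4:**
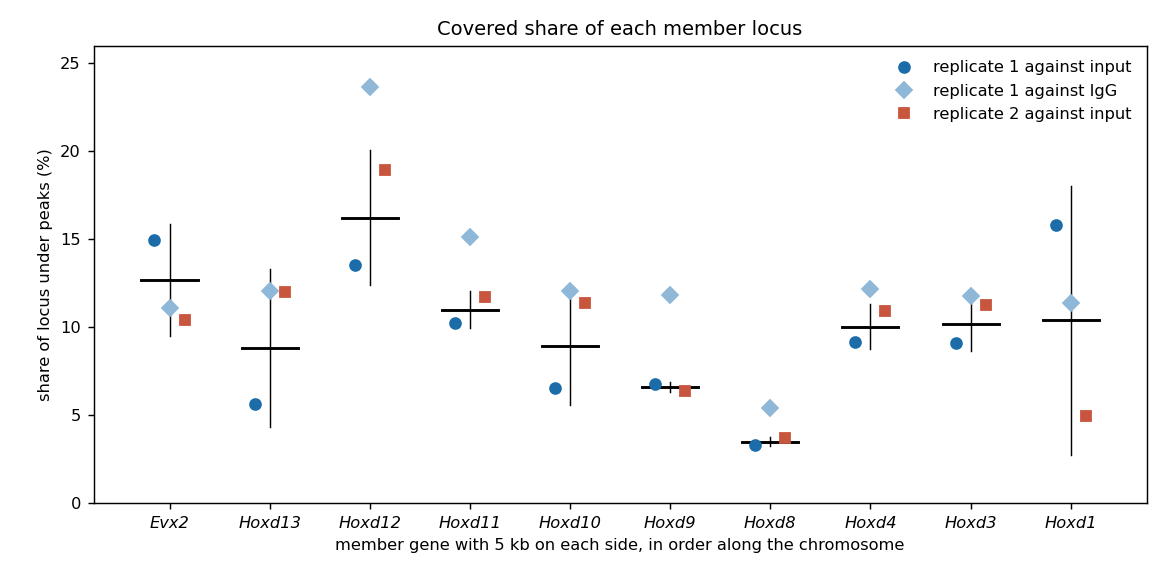
Points give the percentage of each member locus (gene with 5 kb on each side) under peaks in the 3 lists, with the mean of both replicates as a horizontal bar and 1 SD (n = 2) as a vertical line. Hoxd12 has the highest mean, 16.2%, and Hoxd8 the lowest, 3.51%, and the replicates lie farthest apart at Hoxd1.

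The posterior genes from Evx2 to Hoxd9 and the central and anterior genes from Hoxd8 to Hoxd1 were then compared as 2 spans. In replicate 1 they were covered to 9.66% and 9.43%. In replicate 2 the values were 12.9% and 9.27%, and in the IgG-called list 12.8% and 11%. The means were 11.3% ± 2.3 and 9.35% ± 0.114 (SD, n = 2), a difference smaller than the larger SD. Within a library the posterior span was higher by 0.235 percentage points in replicate 1 and by 3.65 in replicate 2. The posterior span had 3.46 CpG per 100 bp and the other one 2.47, and the part of CpG density in these values was not tested.

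Member gene bodies and the rest of the window were covered to a like degree in replicate 1 and unequally in replicate 2. The rest, called intergenic here, holds the stretches between members, the 9.68 kb before Evx2 and the 25 kb beyond Hoxd1. Its share therefore depends on where the window was cut. In replicate 1, member bodies were covered to 8.89% and intergenic stretches to 8.84%. In replicate 2 the shares were 13.2% and 4.85%, and in the IgG-called list 12.2% and 8.78%. Bodies make up 46.1% of the window and held the midpoint of 37 of 73 peaks in replicate 1, 46 of 81 in the IgG-called list and 26 of 39 in replicate 2. The stretch between Hoxd12 and Hoxd11, only 1.85 kb long, was the most covered of all in replicate 1 (34.8%) and in the IgG-called list (44.9%), but had 0 peaks in replicate 2. The 9.68 kb before Evx2 were covered to 16.8% in replicate 1, 14.3% in the IgG-called list and 6.01% in replicate 2, so the mark went past the last gene on this side. On the other side, the 25 kb beyond Hoxd1 were covered to 3.53%, 3.25% and 2.02%. There replicate 1 had a gap of 20.9 kb, its longest, and the last replicate 2 peak ended 7.38 kb beyond Hoxd1.

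Before Evx2, in sequence outside any annotated gene, lay 2 of the shared stretches, 13.7 and 9.39 kb from the Evx2 5′ end. The longer one is shown as the shared mark farthest from any member, with fold 2.84 in replicate 1 and 2.39 in replicate 2 and with 2 CpG in 254 bp.
Shared stretch before Evx2, chr2:74645606-74645859, plus strand: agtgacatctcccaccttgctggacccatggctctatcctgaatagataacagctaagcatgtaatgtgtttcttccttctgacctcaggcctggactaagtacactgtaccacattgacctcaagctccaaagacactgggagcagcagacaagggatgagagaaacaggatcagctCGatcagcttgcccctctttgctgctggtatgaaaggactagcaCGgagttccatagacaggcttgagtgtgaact
Between Hoxd3 and Hoxd1 lay a further one, of 110 bp, in the non-coding gene Haglr at chr2:74750991-74751100, with fold 2.60 and 2.66. Replicate 1 at this place stood on the lowest pileup of its list, and no IgG-called peak overlapped it.

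In all, the 15 shared stretches measured 15 to 360 bp, with a median of 97 bp and a sum of 2030 bp. Of these, 13 were also touched by an IgG-called peak. In position, 11 lay in a member gene, of which 7 in an intron and 4 touching an exon (Hoxd13, Hoxd12, Hoxd9 and Hoxd1), and 4 outside. Within 1 kb of a member 5′ end lay 3. Their fold enrichments had medians of 2.84 in replicate 1 and 2.54 in replicate 2, close to the window medians of 2.79 and 2.48. At Hoxd13 the overlap was 15 bp, wholly repeat-masked, and is the least secure of them.

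Sequence composition, which played no part in the choice of the window, was compared between peaks and the window. The window had 2.44 CpG per 100 bp. Peaks had 2.32 in replicate 1, 2.98 in the IgG-called list and 3.57 in replicate 2. CpG islands, defined as runs of 200 bp windows with at least 50% GC and an observed to expected CpG ratio of at least 0.6, numbered 60 and took 24.1% of the bases. They held 25.4% of the replicate 1 peak bases, 34.3% of the IgG-called ones and 45.3% of the replicate 2 ones. An island was touched by 19 of 73 peaks in replicate 1 and by 23 of 39 in replicate 2, and 7 of 60 islands had a peak of both replicates. The replicates thus differed in where the mark fell relative to CpG islands, and the libraries also differed in depth and tag length, whose part in this was not tested.

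The profile along the cluster was drawn in 29 bins of 5 kb. The bins end at position 74788309 and leave out the last bases of the window, where replicate 1 had a peak at chr2:74789749-74789794. A peak was present in 26 bins in replicate 1, in 23 in replicate 2 and in 23 in both. The 3 bins with 0 peaks in either replicate were the last ones, beyond Hoxd1, one of which held an IgG-called peak. There CpG density was 0.84 to 1.08 per 100 bp and repeats took 28.1% to 38.5% of the bases. Replicate 1 was highest in the bin that holds the end of Hoxd1 (26.2%), where replicate 2 had 7.20%. Replicate 2 was highest in the bin 72.5 kb from the Hoxd13 5′ end, inside Hoxd3 (25.7%), where replicate 1 had 11.6%. Over the 29 bins the covered shares of the replicates had a Pearson's r of 0.33 and a Spearman's rho of 0.40, and over the 25 bins up to Hoxd1 these fell to 0.18 and 0.22. Bins of 1 window share their libraries and their neighbours' peaks, and the relation is weak.

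**Figure D5:**
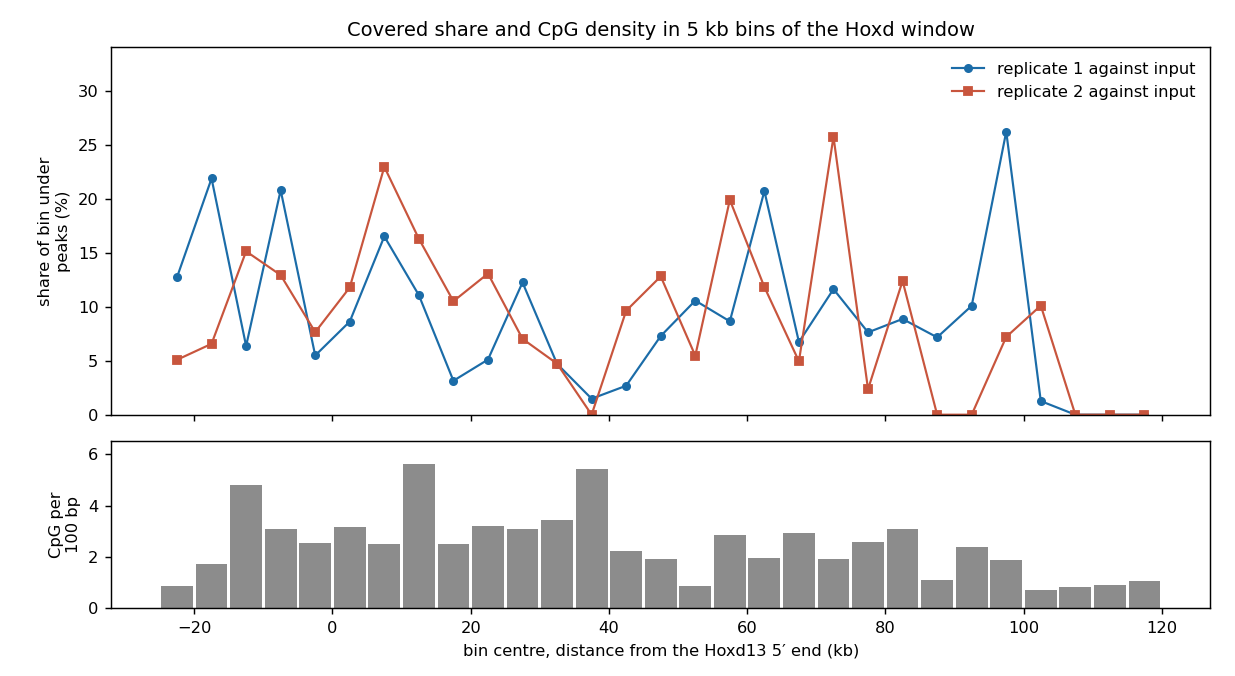
The upper panel gives the percentage of each 5 kb bin under peaks in both replicates against the distance of its centre from the Hoxd13 5′ end, and the lower panel the CpG density of the same bins. Both replicates fall to 1.48% and 0% in the bin of Hoxd8, where CpG density is 5.42 per 100 bp, and both are at 0% in the last 3 bins. Replicate 2 is also at 0% in the bins at 87.5 and 92.5 kb. The last bases of the window, with a replicate 1 peak, lie outside the bins.

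The window holds 10 further annotated genes, and the bodies of 6 had peaks of both replicates, as did 6.15% of all annotated genes outside the members. They were Gm28309 across Hoxd11 and Hoxd10, Gm14396 and Gm28793 between Hoxd10 and Hoxd9, Hoxd3os1 antisense to Hoxd8 and the start of Hoxd3, Gm28230, a gene annotated as protein-coding within Hoxd3, and Haglr, a non-coding RNA beside Hoxd1. Gm28793, of 819 bp, was covered to 21% in replicate 1 and 23.4% in replicate 2, and Gm28230 to 12% and 10.9%. ChIP-seq reads carry no strand of transcription, so peaks of overlapping genes cannot be assigned to either. Mir10b, a microRNA gene within Hoxd4 and Hoxd3 that was added after its values were seen, had 0 peaks in its 68 bp, with the nearest 574 bp away in replicate 1, 42 bp in the IgG-called list and 425 bp in replicate 2.

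Outside the Hox clusters, the loci whose covered shares in both replicates were nearest to the mean of the 10 members (9.52% and 10.2%) were those of Fev, Barhl2 and Pou4f1. These encode transcription factors of the nervous system, in serotonergic neurons, in the retina and brain, and in sensory neurons. Fev had 9.70% in replicate 1 and 11% in replicate 2, a distance of 0.891 percentage points. Barhl2 had 10.8% and 9.52%, and Pou4f1 10.1% and 11.5%, at distances of 1.42 and 1.45. Likeness here was the straight-line distance between the shares in 2 libraries.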

How the data were processed

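The authors used BWA to align reads to GRCm38, SAMtools to sort the uniquely mapped ones, and called broad peaks for each H3K27me3 library on its own with MACS 2.1.1.20160309 at p = 0.005. Per the file headers, duplicates beyond 1 tag per position were dropped, and the smaller library of a pair set the scale. MACS extended replicate 1 tags to 46 bp and replicate 2 tags to 71 bp, shorter than the tags, which narrows peaks. The deposited lists give for each peak the pileup, a signal of mean tag coverage, the fold enrichment, a ratio to the control's background with a pseudocount, and the −log10 p-value and −log10 q-value, the latter nearly all 0. Copies of the lists in other formats were not used.

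Groups followed the labels. Peaks, GENCODE M21 genes and the GRCm38.p6 sequence were joined with Python 3.11.15, pandas 2.3.3, numpy 2.4.6 and scipy 1.17.1. A promoter was the gene 5′ end with 1 kb on each side, a locus the gene with 5 kb on each side, and an overlap at least 1 base. RefSeq promoter sequences matched all 10 members. The counting code was tested on simulated peaks. As the exact test over 2 libraries cannot go below a p of 0.5, no test was run, and values are given with the SD over both or with 95% Wilson intervals, and member counts at gene starts, in loci and in overlaps are set beside the share over all genes, windows or peaks. The named genes were all 10 members, the nearest gene on each side and the one most covered within 1 Mb, other genes of the window with peaks of both replicates, and the 3 most alike loci outside the Hox clusters. The members and lists were chosen with earlier results of these data known. Other peak thresholds, list sizes, controls, overlaps, promoters and loci were tried as alternatives, and so was leaving out each replicate. Shared stretches whose sequence is not shown in the text are not reported by sequence here.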

Additional observations from a re-analysis of the deposited data

How the results depend on the processing

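Few peaks passed stricter thresholds, in the window and in the whole lists. At a −log10 p of 3 or higher the window kept a mean of 5.5 peaks covering 0.711%, with 1 member promoter marked in both replicates, 0% of replicate 1 peaks overlapped by replicate 2 and 40% by IgG-called peaks. That was 6.85% of the window peaks in replicate 1 and 15.4% in replicate 2, against 3.27% and 11.03% of all peaks. At a fold enrichment of 3 or higher it kept 9 peaks covering 0.608%, with 1 promoter, 0% and 50%. At a q-value of 0.05 or lower 0 peaks, 0% and 0 promoters were left, and no overlap could be computed.

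The covered share of the window was 7.15% without peaks at the lowest pileup, 8.13% with replicate 2 reduced to the size of the replicate 1 list and 9.53% with replicate 1 called against IgG, each farther from 8.79% than the small SD between replicates. With 5 kb on each side of the start, 10 of 10 promoters had a peak in both replicates. Settings added after the data were seen gave 8 for any GENCODE start and 7 for RefSeq starts, with the same start marked in both replicates, and 8 when Hoxd11 was counted over both of its RefSeq starts. Without the lowest pileup the count was 5, with replicate 1 called against IgG 5 and with replicate 2 reduced 4. An overlap of 50% of both peaks left 1.37% of replicate 1 peaks shared with replicate 2 and 43.8% with the IgG-called list, and a peak within 1 kb gave 64.4% and 89.0%. Leaving out a replicate gave 39 to 73 peaks, 8.71% to 8.87% and 7 to 8 promoters. These promoters needed a peak in the remaining replicate only, so their count is not like the counts that need both replicates. No paired analysis was possible because no result came from a test, and each H3K27me3 list was already called against a control.

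By member locus, both stricter thresholds on p and fold and the q-value moved all 10 shares. At a −log10 p of 3 or higher the mean share was 0.180% at Hoxd8 and 0% at Evx2, Hoxd12 and Hoxd1, so Hoxd8 was not the lowest there. With replicate 1 called against IgG 5 moved, with the gene body alone 3, with 10 kb on each side 4, without the lowest pileup 4, and with replicate 2 reduced 1.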
